A study of Mus musculus with 6 samples.

Results

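The Jun and Fos genes encode the leucine zipper proteins that make up the transcription factor AP-1. Probe sets were taken where the platform annotation gave a single gene symbol and that symbol was Jun, Junb, Jund, Fos, Fosb, Fosl1 or Fosl2. This gave 11 of the 44991 probe sets on the array: 2 each for Jun, Jund, Fosl1 and Fosl2, and 1 each for Junb, Fos and Fosb. All 7 genes were represented.

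The RNA came from haematopoietic stem cells (HSC) of mouse bone marrow, isolated by flow cytometry. The PU.1 KD HSC group, from animals with a PU.1 knockdown, and the WT HSC group, from wildtype animals, had 3 arrays each, and each array held RNA pooled from 3 animals. Strain, age and sex of the animals, how PU.1 was reduced, and the sort markers are not stated in the labels. RNA was amplified in 2 rounds of reverse transcription and in-vitro transcription and hybridised to the Mouse 430 2.0 array of Affymetrix.

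Jun proteins pair with each other or with Fos proteins, whereas Fos proteins need a Jun partner to bind DNA. Jun, Junb, Fos and Fosb are immediate early genes, induced within minutes by growth factors, cytokines and stress, while Jund is expressed steadily in most cells. In myeloid cells Jun acts as a coactivator of PU.1, the ETS factor encoded by Spi1, and loss of Junb in mouse HSC leads to a myeloproliferative disease. The title of the series names the Jun family and PU.1 together in leukaemic stem cells, so the comparison asks how these genes were expressed in HSC with reduced PU.1.

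In the knockdown pools the transcripts of Jun, Junb, Fos and Fosb were lower than in the wildtype pools, each without overlap between the groups, and Jund, Fosl1 and Fosl2 overlapped. Knockdown mean intensity was 33.0% of the wildtype mean for Fosb, 44.3% and 55.8% on the Jun probe sets, 58.3% for Junb and 74.4% for Fos. Of the 11 probe sets, 5 were lower without overlap and 0 were higher without overlap, where 5.26% of all probe sets were lower and 7.59% higher in that way. In mean, 7 of the 11 were lower, where 48.3% of all probe sets were. At an unadjusted limma p under 0.05, 5 of the 11 were lower and 0 higher, against 3.33% lower and 3.78% higher, or 7.11% in either direction, of all probe sets. After Benjamini-Hochberg adjustment in limma 0 of the 11 passed the threshold of 0.05, and 0% of all probe sets did.

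The promoters of the 4 genes with lower values are shown because the genes differed in the same direction. Each line gives the 120 bases before the start in the RefSeq promoter table (GRCm38.p6), 5′ to 3′ on the gene's strand, with TGACG or TGACATCA in capitals. TGACG is the core letters of cyclic AMP response elements, and TGACATCA is the AP-1 type element known in the Jun promoter, through which Jun protein acts on its own gene.
Jun, chr4:95052223-95052342, minus strand: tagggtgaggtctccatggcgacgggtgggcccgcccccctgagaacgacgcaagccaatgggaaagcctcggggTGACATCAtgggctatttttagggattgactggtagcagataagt
Junb, chr8:84978749-84978868, minus strand: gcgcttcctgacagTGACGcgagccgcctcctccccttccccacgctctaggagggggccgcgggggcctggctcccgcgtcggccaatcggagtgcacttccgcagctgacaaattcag
Fos, chr12:85473770-85473889, plus strand: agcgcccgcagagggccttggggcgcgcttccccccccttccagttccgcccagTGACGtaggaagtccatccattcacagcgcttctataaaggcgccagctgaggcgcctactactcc
Fosb, chr7:19310046-19310165, minus strand: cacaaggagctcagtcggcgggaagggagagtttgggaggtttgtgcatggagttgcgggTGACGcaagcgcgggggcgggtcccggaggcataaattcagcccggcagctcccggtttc

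Of the 7 genes, 6 had a promoter in the table, and 300 bases of each (250 before and 50 after the start) were searched on both strands. TGACG was found in the promoters of Junb, Fos and Fosb and in 20.8% of all 32851 promoters of the table. TGACATCA was found in that of Jun, 45 to 38 bases before the start, and in 3.62% of all promoters. Neither was found in the Jund or Fosl2 windows. The AP-1 site TGANTCA (7.81% of all promoters), the CArG box bound by serum response factor (1.63%) and the PU.1-type letters GAGGAA (28.3%) had no match in the 6 windows, and the ETS letters GGAAGT (23.8%) were found in those of Junb and Fos. Bases farther than 250 before the start were not searched, so a missing match holds for the window and not for the whole promoter. The motifs were picked with these sequences in view, and a match describes letters, not a site in use.

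Before the Jun and Fos genes, the targeted gene was read as a check of the labels. Spi1 (1418747_at) had deposited intensities of 362, 360 and 119 in knockdown pools 1, 2 and 3, against 1120, 718 and 1053 in wildtype pools 1, 2 and 3. The knockdown mean was 29.1% of the wildtype mean and the groups did not overlap, with knockdown pool 3 the lowest and wildtype pool 2 the lowest of its group. Its log2 difference was -1.76 (SE 0.43), with a limma adjusted p of 0.503, and -1.23 without knockdown pool 3.

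Jun is the best studied partner of PU.1 and the founding member of its family. On probe set 1417409_at its deposited intensities were 1137, 880 and 794 in knockdown pools 1, 2 and 3, against 1870, 2638 and 1831 in wildtype pools 1, 2 and 3. Every knockdown pool lay below every wildtype pool, and wildtype pool 2 stood above the other wildtype pools. After a floor at 1, log2(value + 16) and quantile normalisation, the scale of all differences below, Jun differed by -1.13 (SE 0.23, 95% interval -1.65 to -0.60). The interval corresponds to 0.318 to 0.66 of the wildtype level on that scale, which understates folds of weak probe sets.

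The other Jun probe set, 1448694_at, had 617, 813 and 708 in knockdown pools 1, 2 and 3, against 1136, 1689 and 1007 in wildtype pools 1, 2 and 3. The groups again did not overlap, and wildtype pool 2 was again the highest. The probe sets disagreed on the knockdown pools, since pool 1 was the highest of them on 1417409_at and the lowest in deposited intensity on 1448694_at. The difference on 1448694_at was -0.74 (SE 0.20, 95% interval -1.20 to -0.29). Among all probe sets ordered by limma p, 1417409_at was at place 125 and 1448694_at at place 478. Neither passed after adjustment over all probe sets (limma adjusted p = 0.426 and 0.538), and the exact two-sided permutation p was 0.1 for each, the smallest that 3 against 3 arrays allow.

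Junb, which opposes Jun in many settings and restrains growth of myeloid cells, was measured by 1415899_at. It had 392, 549 and 459 in knockdown pools 1, 2 and 3, against 711, 900 and 789 in wildtype pools 1, 2 and 3. The groups were separate, with pool 1 the lowest and pool 2 the highest in both groups. The log2 means were 8.94 ± 0.16 in knockdown and 9.63 ± 0.13 in wildtype pools (SD, n = 3 each). The difference was -0.69 (SE 0.15, 95% interval -1.04 to -0.34), at place 178 of all probe sets by limma p (adjusted p = 0.473), with an exact permutation p of 0.1.

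Jund, the steadily expressed member, did not separate the groups. On 1449117_at it had 2062, 2237 and 2060 in knockdown pools 1, 2 and 3, against 3023, 2682 and 1921 in wildtype pools 1, 2 and 3. Wildtype pool 3 lay below all knockdown pools while the other wildtype pools lay above them, so the spread was in the wildtype group. The difference of -0.21 (SE 0.17) had a 95% interval of -0.62 to 0.19. The dim probe set 1440265_at ran from 58.0 to 70.0 in knockdown and from 56.6 to 76.4 in wildtype pools, under the array medians of 81.4 to 91.5, and its difference of 0.037 (95% interval -0.33 to 0.40) turned to -0.026 with the values as deposited.

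**Figure D1:**
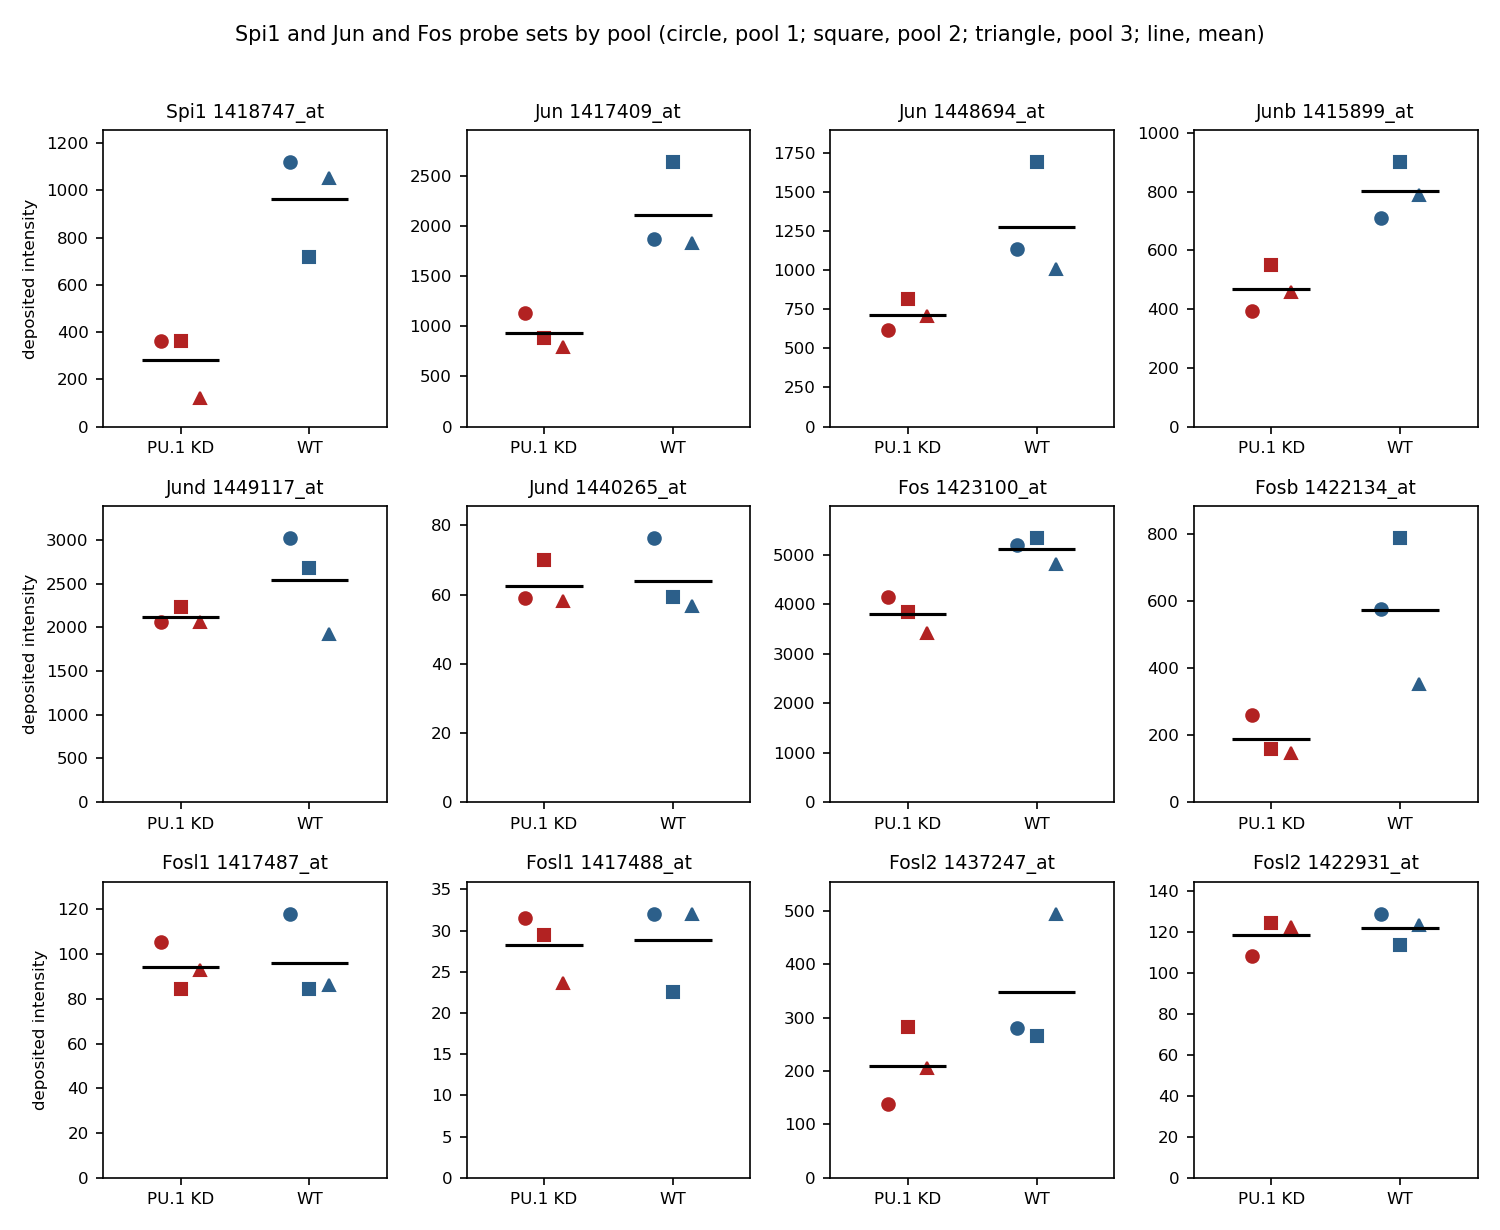
Deposited intensity (linear axis from 0) of Spi1 and of the 11 Jun and Fos probe sets, 1 panel each, with PU.1 KD pools on the left in red and WT pools on the right in blue. Marker shapes give the pool number and lines the group means; both Jun probe sets, Junb, Fos and Fosb have all knockdown pools below all wildtype pools.

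Among the Fos genes, Fos itself was bright on every array. Its probe set 1423100_at had 4147, 3851 and 3425 in knockdown pools 1, 2 and 3, against 5192, 5347 and 4818 in wildtype pools 1, 2 and 3. The knockdown pools were all lower, by a smaller share than for Jun, Junb or Fosb. The difference was -0.46 (SE 0.14, 95% interval -0.79 to -0.14), at place 872 of all probe sets by limma p (adjusted p = 0.579).

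Fosb, whose products heterodimerise with Jun proteins, had the largest difference among the 11 probe sets. On 1422134_at it had 260, 158 and 148 in knockdown pools 1, 2 and 3, against 576, 789 and 353 in wildtype pools 1, 2 and 3. The groups did not overlap, but both were spread widely, and wildtype pool 3 was nearer to knockdown pool 1 than to wildtype pool 2. The difference of -1.40 (SE 0.32) had a 95% interval of -2.15 to -0.66, at place 232 of all probe sets by limma p (adjusted p = 0.486). For Fos and for Fosb the exact permutation p was 0.1.

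Fosl1 and Fosl2 encode Fra-1 and Fra-2, Fos relatives that lack the strong activation domain of Fos. Fosl1 ran from 84.1 to 105 in knockdown and from 84.3 to 118 in wildtype pools on 1417487_at, near the array medians. On 1417488_at it ran from 23.7 to 31.5 in knockdown and from 22.5 to 32.1 in wildtype pools, below those medians. The Fosl1 differences were 0.063 (95% interval -0.35 to 0.48) and 0.025 (-0.34 to 0.39), and both were below 0 with the values as deposited.

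The Fosl2 probe sets differed from each other. On 1437247_at the intensities were 139, 283 and 206 in knockdown pools 1, 2 and 3, against 281, 265 and 495 in wildtype pools 1, 2 and 3. Wildtype pool 3 stood apart, and knockdown pool 2 lay above wildtype pools 1 and 2. The difference was -0.61 (SE 0.30, 95% interval -1.31 to 0.08) with all pools and -0.32 without wildtype pool 3. The dim probe set 1422931_at ran from 109 to 124 in knockdown and from 114 to 129 in wildtype pools, with a difference of 0.043 (95% interval -0.27 to 0.35) that was below 0 with the values as deposited. The exact permutation p of the 6 Jund, Fosl1 and Fosl2 probe sets lay between 0.3 and 0.8.

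**Figure D2:**
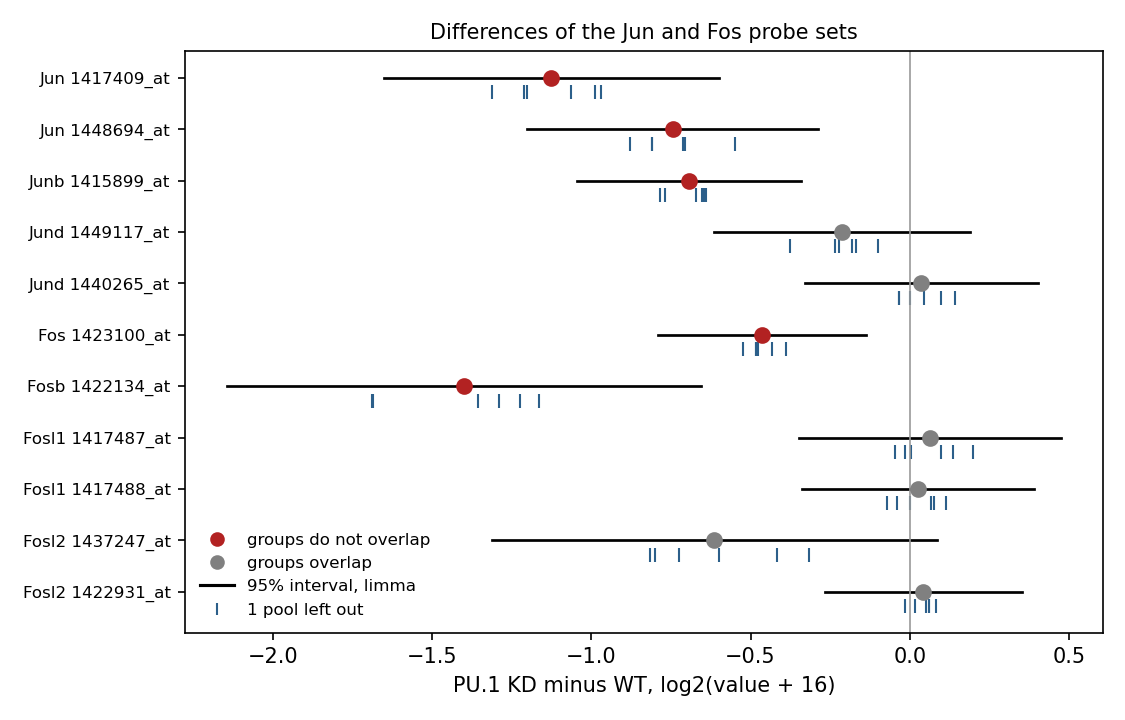
Knockdown minus wildtype difference on the log2(value + 16) scale for each Jun and Fos probe set, with the 95% interval of the limma fit (n = 3 pools per group). Red points mark groups without overlap, and blue ticks give the difference with 1 pool left out, which stay below 0 for both Jun probe sets, Junb, Fos, Fosb, Jund 1449117_at and Fosl2 1437247_at.

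Leaving out any 1 pool kept the sign of the probe sets that did not overlap. The range was -1.31 to -0.97 for Jun on 1417409_at, -0.88 to -0.55 on 1448694_at, -0.78 to -0.64 for Junb, -0.52 to -0.39 for Fos and -1.69 to -1.16 for Fosb. For both Jun probe sets, Junb and Fosb the value nearest 0 was that without wildtype pool 2, the pool in which Jun, Junb, Fos and Fosb were highest. That pool had the lowest Spi1 of the wildtype group. Knockdown pool 3, with the lowest Spi1 of all arrays, was the lowest in deposited intensity for Jun on 1417409_at, Fos and Fosb, while knockdown pool 1 was the lowest for Junb.

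**Figure D3:**
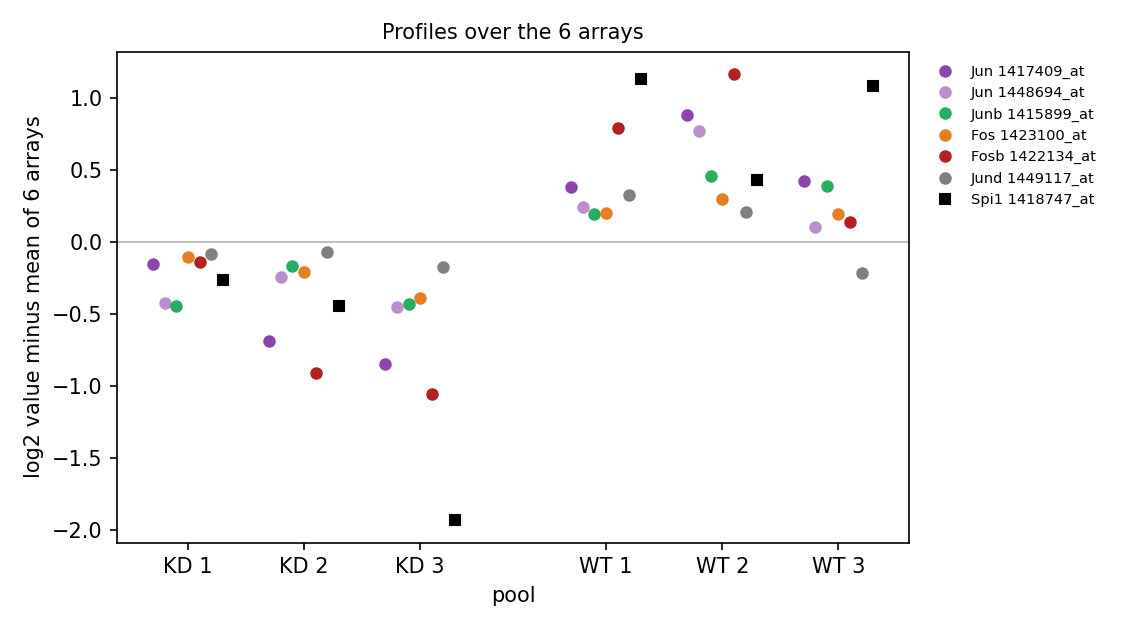
Log2 value of each pool minus the mean of the 6 arrays, for Spi1 (black squares) and 6 Jun and Fos probe sets, with knockdown pools on the left and wildtype pools on the right. Jun, Junb, Fos and Fosb lie below 0 in all knockdown pools and above 0 in all wildtype pools, whereas Jund lies below 0 in wildtype pool 3.

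To ask whether the genes differed unequally, the log2 value of each gene's brightest probe set was set against that of Jund on the same array. For Jun this log2 ratio was -0.78, -1.33 and -1.38 in knockdown pools 1, 2 and 3, against -0.65, -0.028 and -0.067 in wildtype pools 1, 2 and 3, a difference of -0.91. For Fosb it was -2.85, -3.63 and -3.67 in knockdown pools 1, 2 and 3, against -2.33, -1.83 and -2.43 in wildtype pools 1, 2 and 3, a difference of -1.19. Both ratios separated the groups, though for Jun the gap between knockdown pool 1 and wildtype pool 1 was narrow. The ratio differences of Junb (-0.48), Fos (-0.25), Fosl2 (-0.40) and Fosl1 (0.28) came with overlapping groups. With the probe sets of each gene averaged, the Junb and Fos ratios separated the groups as well, at -0.61 for Junb and -0.38 for Fos. Junb and Fos had 1 probe set each, so averaging changed only the Jund value, by adding its dim probe set 1440265_at. Leaving out 1 pool gave -0.67 to -0.29 for Junb and -0.38 to -0.10 for Fos, each farthest from 0 without wildtype pool 1 and nearest to it without wildtype pool 3. The Fosl2 ratio difference was 0.061 without wildtype pool 3. The exact two-sided permutation p was 0.1 for Jun and Fosb, and 0.24 for each after Benjamini-Hochberg adjustment over the 6 ratios. Since 0.1 is the smallest p that 3 against 3 arrays allow, this test could not reach 0.05 and does not settle whether the genes differed unequally.

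Likeness of pattern was measured as the root mean square difference between log2 profiles over the 6 arrays, each centred on its own mean, so that a smaller value is a closer profile. Each member was read on its brightest probe set, which for Jun was 1417409_at. Centred values in knockdown pools 1, 2 and 3 were -0.15, -0.69 and -0.85 there, and -0.43, -0.24 and -0.45 on 1448694_at. The order of likeness to Jun therefore holds for 1417409_at and was not examined for 1448694_at. Among the other family members Fosb lay closest to Jun (0.265), then Junb (0.353) and Fos (0.382). For Fos, Junb lay closest (0.174), then Jund (0.208), beside a spread of 0.249 for Fos itself. Across 12002 other gene symbols on probe sets brighter than the median, the nearest to Jun was Egr1, a zinc finger immediate early factor (0.097, beside a spread of 0.622 for Jun itself). Next came Lima1, an actin-binding protein gene (0.114), Ldhb, a lactate dehydrogenase subunit gene (0.117), Dusp1, a phosphatase that switches off MAP kinases (0.132), and Pdxdc1 (0.138).

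The nearest to Fosb were Ldhb (0.178), Zfp36, which encodes an mRNA decay factor (0.204), Ankrd33b and Trim47 (0.236 each) and Cdcp1 (0.254). Fyb, an adaptor protein gene of blood cells, was nearest to Junb (0.070), followed by Sla (0.087), Fnip1 (0.090), Dock1 (0.091) and St8sia4 (0.093). Snd1 (0.049) and the NF-kB inhibitor gene Nfkbia (0.064) were nearest to Fos, followed by Rps9 (0.073), Pappa2 (0.078) and Kbtbd7 (0.083). A profile with a small spread gives small values throughout, so these are read within a gene and not between genes.

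The wider pathway was read from gene lists, each gene by its brightest probe set, against 18187 genes with a median difference of 0.018, of which 46.6% had a lower mean in the knockdown pools. In each list 0 genes passed the limma threshold after adjustment over all probe sets. At an unadjusted limma p under 0.05, 3.52% of all genes were lower and 4.1% higher.

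Other leucine zipper proteins that pair with Jun or Fos had a median difference of 0.065 (14 of 15 genes measured, 5 lower and 9 higher in mean), which turned to -0.0034 with the values as deposited. Batf, a Jun partner of lymphoid and myeloid cells, was at 0.52 (SE 0.19) and its relative Batf2 at 0.32 (SE 0.21). The lowest p among the lower genes were those of Maf at -0.98 (SE 0.42), a sign shown by 1 of its 6 probe sets, and of the stress response factor gene Atf4 at -0.21 (SE 0.15). At an unadjusted limma p under 0.05 there was 1 lower and 1 higher gene.

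Genes of the MAP kinase cascades, which phosphorylate Jun and Fos and induce their transcription, had a median difference of -0.063 (17 of 22 measured, 11 lower and 6 higher in mean), with 0 at an unadjusted limma p under 0.05. The median was -0.14 with the values as deposited and -0.018 with all probe sets of each gene averaged, and leaving out 1 pool gave -0.13 (without wildtype pool 3) to -0.027 (without knockdown pool 2). Rps6ka3, which encodes an ERK-activated kinase, was at -0.40 (SE 0.18), though 1 of its 3 probe sets was above 0, at 0.17. Mapk8, which encodes the Jun kinase JNK1, was at -0.23 (SE 0.14) with all 5 of its probe sets below 0. Mapk9, encoding JNK2, was at 0.23 (SE 0.22) with all 3 probe sets above 0, and the upstream kinase gene Map3k4 at 0.14 (SE 0.13).

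Factors that bind the promoters of Jun or Fos, or serve there as coactivators, had a median of -0.11 (13 of 14 measured, 11 lower and 2 higher in mean). The lowest p were those of Elk3, a partner of serum response factor (-0.53, SE 0.19), and Mef2c, a factor that drives Jun (-0.69, SE 0.27), and in both all probe sets of the gene, 4 and 5, were below 0. These were the 2 lower genes at an unadjusted limma p under 0.05, or 15.4% of the list. Elk1 and the coactivator gene Crebbp were at 0.10 (SE 0.20) and 0.053 (SE 0.20). Leaving out wildtype pool 2 gave a median of 0.0011, and leaving out wildtype pool 3 gave -0.24.

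Genes of the turnover and restraint of Jun had a median of 0.018 (15 of 17 measured, 6 lower and 9 higher in mean). The median was -0.051 with the values as deposited and -0.0036 without knockdown pool 2. The list mixes genes of opposite action, such as those of a ubiquitin ligase subunit and a deubiquitinase. Dusp1 was at -0.91 (SE 0.22), Fbxw7, which encodes a ubiquitin ligase subunit that binds Jun, at -0.20 (SE 0.14). Men1, which encodes menin, a binding partner of JunD, was at 0.40 (SE 0.15) with all 3 probe sets between 0.39 and 0.51, and the deubiquitinase gene Usp28 was at 0.25 (SE 0.15).

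Textbook AP-1 target genes showed no shared direction, with a median of 0.01 (29 of 30 measured, 14 lower and 15 higher in mean) that turned to -0.056 with the values as deposited, -0.065 without wildtype pool 2 and -0.0048 without knockdown pool 1. Vim, encoding the intermediate filament vimentin, was at 0.62 (SE 0.19) with all 3 probe sets above 0, and the oxidoreductase gene Nqo1 at 0.53 (SE 0.22). The chemokine gene Cxcl2 was at -0.69 (SE 0.16), on a probe set under 50 intensity units on every array, and the matrix metalloproteinase gene Mmp9 at -0.88 (SE 0.56). At an unadjusted limma p under 0.05 there were 1 lower and 2 higher genes.

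Immediate early genes outside the Jun and Fos families had a median of -0.18 (28 of 28 measured, 21 lower and 7 higher in mean). At an unadjusted limma p under 0.05, 8 were lower, or 28.6% of the list, and 2 were higher. Egr1 was at -1.23 (SE 0.21) and Rhob, which encodes an inducible small GTPase, at -0.92 (SE 0.16). Socs3, encoding a feedback inhibitor of cytokine signalling, was at 1.70 (SE 0.40) with all 3 probe sets between 1.03 and 1.70, and Myc at 0.46 (SE 0.14). Without wildtype pool 1 the count of lower genes was 5, and it ran from 6 to 9 without any other pool. The share of all probe sets at that p, in either direction, moved likewise. It was lowest without wildtype pool 1 (5.35%) and highest without wildtype pool 2 (8.58%), where the count of lower genes was 9.

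Myeloid genes at which PU.1 acts, among them Csf1r, where Jun is known as its coactivator, had a median of -0.52 (12 of 12 measured, 9 lower and 3 higher in mean). Csf1r, the macrophage colony-stimulating factor receptor gene, was at -0.0045 (SE 0.20), with all 3 probe sets below 0, down to -0.22. Csf2ra, a subunit gene of the GM-CSF receptor, was at -1.0 (SE 0.22) and at -0.13 on its other probe set. The lipopolysaccharide co-receptor gene Cd14 was at -0.96 (SE 0.29). The scavenger receptor gene Msr1 was at 0.087 (SE 0.19), with 2 of its 4 probe sets below 0. Cebpb, a myeloid leucine zipper factor gene, was at 0.097 (SE 0.30). At an unadjusted limma p under 0.05, 3 were lower and 0 higher. The lower ones were Csf2ra, Cd14 and Egr2, and Egr2 is also counted in the list of other immediate early genes. Its probe set was dim, from 14.6 to 68.0 over the 6 arrays, under the array medians. Leaving out knockdown pool 3 gave a median of -0.11, leaving out wildtype pool 1 gave -0.18, and leaving out wildtype pool 2 gave -0.79. With the mean of all probe sets of each gene it was -0.27.

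**Figure D4:**
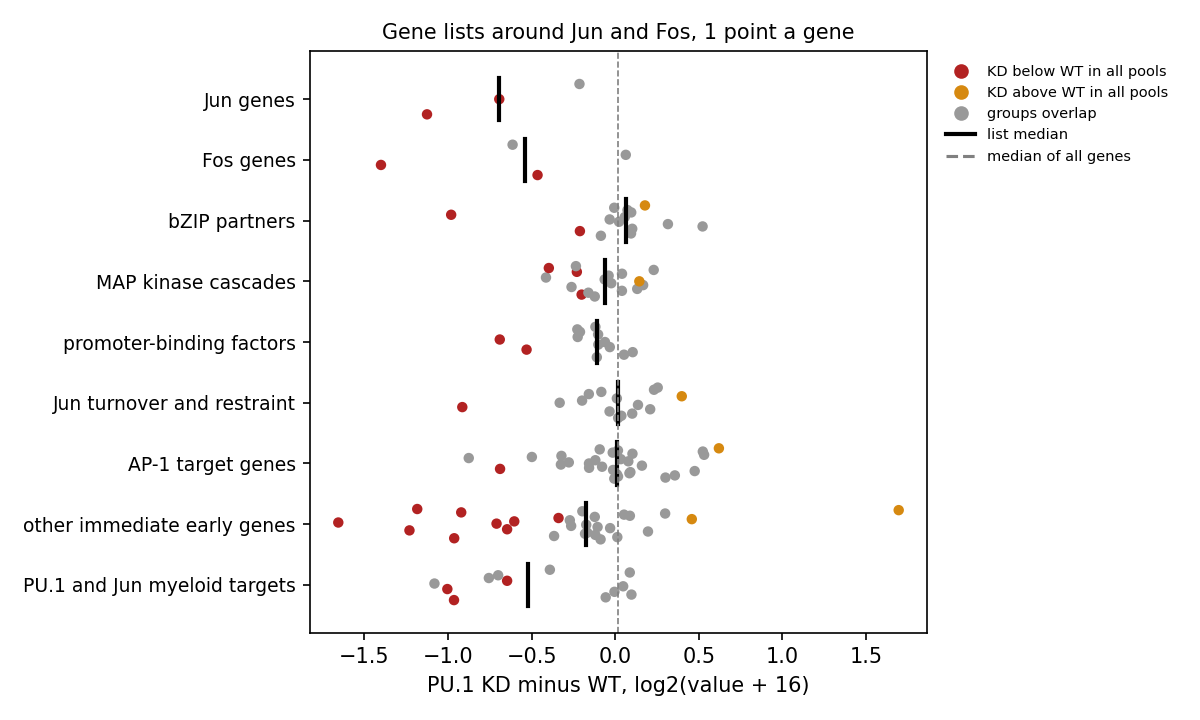
Knockdown minus wildtype difference on the log2(value + 16) scale, 1 point a gene by its brightest probe set, for the Jun and Fos genes and 7 lists around them. Thick lines are list medians, running from -0.69 for the Jun genes to 0.065 for bZIP (leucine zipper) partners, and the dashed line is the median of all genes at 0.018.

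Markers of stem cells and of other blood cells were read on the same arrays, since the pools may hold more than a single cell type. For scale, 5.39% of all genes were lower and 8.42% higher without overlap. At an unadjusted limma p under 0.05 these shares were 3.52% and 4.1%. Stem cell markers were detected, with Kit between 1172 and 2326 intensity units over the 6 arrays, and 10 of 12 were measured. Detected as well were granule genes of neutrophil precursors, with Mpo between 5855 and 8393. The summed intensity of 11 neutrophil markers ran from 47401 to 61610 in knockdown pools and from 23697 to 61172 in wildtype pools, where the low value was that of wildtype pool 2, and 9 of 11 were higher in mean, 2 of them without overlap. Platelet markers summed to between 3158 and 9236 in knockdown and 8751 and 18776 in wildtype pools, lowest in knockdown pool 2. By gene, 10 of 11 platelet markers were lower in mean, 5 of them at an unadjusted limma p under 0.05 and 3 without overlap, with a median difference of -1.32.

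Mast cell, basophil and eosinophil markers summed to 2271 to 3825 in knockdown and 2566 to 13739 in wildtype pools, and its genes did not run in a single direction. The eosinophil granule genes Epx (-3.69, SE 0.88), Prg3 (-3.68, SE 0.87) and Prg2 (-3.06, SE 0.74) were the 3 of 11 lower in mean, each without overlap, and Epx had the lowest difference of all 18187 genes. Epx had 210, 68.5 and 31.0 in knockdown pools 1, 2 and 3, against 3682, 348 and 1698 in wildtype pools 1, 2 and 3. Among wildtype pools Epx was lowest in pool 2, where Jun, Junb, Fos and Fosb were highest. The 8 markers with a higher mean included the mast cell and basophil genes Cpa3 (2.05, SE 0.35) and Mcpt8 (1.71, SE 0.46), each without overlap.

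Monocyte markers summed to 6184 to 10555 in knockdown and 7070 to 11364 in wildtype pools, with 12 of 12 lower in mean and 0 without overlap. B lymphoid markers summed to 929 to 1993 in knockdown and 1977 to 2524 in wildtype pools, with 6 of 9 lower in mean. The B cell receptor signalling genes Blnk (-1.10, SE 0.27) and Cd79b (-1.06, SE 0.31) and the surface antigen gene Ms4a1 (-0.86, SE 0.24) were lower without overlap. Igll1 was higher without overlap on the normalised scale (0.24, SE 0.16), though its other probe set was at -0.24. The median of the B lymphoid list was -0.075, and it ran from -0.80 to 0.059 with 1 pool left out. T and NK markers summed to 3570 to 5489 in knockdown and 2032 to 4970 in wildtype pools, with 9 of 11 higher in mean and 2 of these without overlap. Erythroid markers summed to 9546 to 16713 in knockdown and 8611 to 12816 in wildtype pools, with 0 of 9 at an unadjusted limma p under 0.05.

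Stem cell markers summed to 7457 to 9984 in knockdown and 8195 to 15286 in wildtype pools, highest in wildtype pool 2, the pool in which Jun, Junb, Fos and Fosb were highest. Of the 10 measured, 7 were lower in mean and 2 of these had an unadjusted limma p under 0.05. They were Tek, which encodes the angiopoietin receptor Tie2, at -0.99 (SE 0.21, without overlap) and the stem cell transcription factor gene Mecom at -0.82 (SE 0.34, with overlap). Although single markers separated the groups, the summed levels of all 8 lists overlapped between them. The platelet sums overlapped through wildtype pool 2 alone (8751), which lay below knockdown pools 1 (9188) and 3 (9236). The mast cell, basophil and eosinophil sum pooled genes that differed in opposite directions. Markers under 50 units on every array were Cx3cr1 and Cd3g. The part of these cell types in the differences of Jun, Junb, Fos and Fosb was not tested, and in sorted bulk RNA fewer cells of a type and less RNA per cell cannot be told apart.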

How the data were processed

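The deposited table holds the authors' intensity of each probe set on 6 arrays. The labels do not name the software or the scaling that produced these values. Array medians ran from 81.4 to 91.5 and 264 to 409 values per array were below 0. Values under 1 were set to 1, log2(value + 16) was taken and arrays were quantile normalised. Tests ran over all 44991 probe sets in R 4.3.3 (limma 3.58.1, lmFit then eBayes), were two-sided, and called a Benjamini-Hochberg adjusted p under 0.05. The script was tested on simulated data. Figures used Python 3.11.15 and matplotlib 3.10.9.

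Names came from the platform annotation, and promoters and symbols from RefSeq (GRCm38.p6). The brightest probe set on average stood for each listed gene. Named genes were all member probe sets, Spi1, the genes of the 2 smallest p in each direction of each pathway list, and the 5 nearest profiles to Jun, Junb, Fos and Fosb. Csf1r and the cell type markers were named after their values were seen. The members and lists were chosen with earlier results of these data known. No label says that same-numbered pools are paired. The number of arrays limits the precision.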

Additional observations from a re-analysis of the deposited data

How the results depend on the processing

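The 9 other settings were the values as deposited, arrays centred on medians, pseudocounts of 1 and 64, a trend or robust option in eBayes, a filter that dropped probe sets with a mean under the 40th percentile, array weights and the replicate number as a block; each array was also left out in turn. Of the Jun and Fos probe sets 0 were called by limma after adjustment in all of these, and at an unadjusted p under 0.05 the count was 5 in the 9 settings and 5 to 6 with an array left out. Of all probe sets, 6.68% to 8.80% were under that unadjusted p in the 9 settings, and 5.35% to 8.58% with an array left out. The count over all probe sets after adjustment was 0 in the 9 settings and 0 to 2 with an array left out. The difference of 1417409_at (Jun) ran from -1.16 to -1.08 over the 9 settings, and that of Fosb from -1.49 to -1.22. Differences near 0 changed sign. With the values as deposited Fosl1 was at -0.016 on 1417487_at and -0.017 on 1417488_at, Fosl2 on 1422931_at at -0.040 and Jund on 1440265_at at -0.026, and with array weights the Fosl1 probe sets were at -0.0052 and -0.039. With an array left out they ran from -0.045 to 0.20 and -0.070 to 0.11 for Fosl1, -0.016 to 0.083 for Fosl2 and -0.034 to 0.14 for Jund, and the Fosl2 ratio to Jund from -0.63 to 0.061, above 0 without wildtype pool 3. With all probe sets of a gene averaged, the ratio difference to Jund was -0.85 for Jun, -1.31 for Fosb, -0.61 for Junb, -0.38 for Fos, -0.20 for Fosl2 and 0.13 for Fosl1. The filter left 10 of the 11 probe sets. With the replicate block the differences were as without it, at -1.13 for Jun on 1417409_at, with an adjusted p of 0.386 in limma, and it changed no call. Deviations of same-numbered pools from their group means correlated at 0.178, 0.061 and -0.039, so the numbers were not taken as pairs.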

Other observations

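Several other immediate early genes, picked out here after their values were seen, differed in the same direction as Jun and Fosb. Egr1 had deposited intensities of 1600, 1469 and 1190 in knockdown pools 1, 2 and 3, against 3107, 4262 and 2864 in wildtype pools 1, 2 and 3. As for Jun, wildtype pool 2 was the highest of its group and the groups did not overlap. Klf2, which encodes a zinc finger factor of quiescent lymphocytes and endothelium, had 184, 133 and 52.7 in knockdown pools 1, 2 and 3, against 385, 468 and 383 in wildtype pools 1, 2 and 3. Its log2 difference was -1.66 (SE 0.38), the lowest of the 28 genes of the list, and the limma adjusted p was 0.486. Zfp36 had 1150, 800 and 596 in knockdown pools 1, 2 and 3, against 1946, 2365 and 1554 in wildtype pools 1, 2 and 3. The other genes of the list with an unadjusted limma p under 0.05 and a lower mean were Rhob, Ier5, Btg2, Klf4 and Egr2. For Ier5, 1 of its 3 probe sets was above 0, at 0.33. Egr2 was dim, from 14.6 to 68.0 over the 6 arrays. In the opposite direction, Myc had 1836, 1685 and 1644 in knockdown pools 1, 2 and 3, against 1248, 1389 and 1196 in wildtype pools 1, 2 and 3, also without overlap.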
